A study of Homo sapiens with 12 samples.

Results

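The genes of the mitochondrial ribosomal proteins were followed through replicative senescence at the level of mRNA and of ribosome-protected fragments (RPFs). Members were chosen by name: an MRPL or MRPS symbol with digits, an optional letter and at least 1 read in its coding sequence (CDS). This gave 78 of the 16451 symbols with a CDS read, 49 MRPL symbols of the large subunit and 29 MRPS symbols of the small subunit. The other 6 of the 84 symbols that start this way are pseudogenes or non-coding transcripts. IMR90 cells, an established fibroblast line from normal human lung, were either proliferating (Pro) or had reached replicative exhaustion by passaging (Sen), with no other treatment named in the labels. Each state had 3 independent lysates, each of which gave 1 Ribo-seq and 1 poly(A)-enriched RNA-seq library, so the study held 12 libraries in 4 groups of 3. Cycloheximide, which arrests ribosomes on mRNA, was in the lysis buffer of all samples. The protocol names more than 1 isolate of IMR90 without tying them to samples, so isolate and state cannot be told apart. The RNA-seq tables of Pro also bear a tag that looks like a misspelt DMSO, a common solvent, and what it stands for is not known.

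Mitochondria keep their own ribosome, the mitoribosome, which translates the few mRNAs that mitochondrial DNA encodes, all for subunits of the respiratory chain and the ATP synthase. Its RNAs are transcribed inside the organelle, whereas all of its proteins are encoded in the nucleus, translated by cytosolic ribosomes and imported. Some of these proteins descend from bacterial ribosomal proteins and others were added in the mitochondrial lineage. The footprints counted here are therefore those of cytosolic ribosomes making mitoribosome parts, not of mitoribosomes. A pair of the MRPS proteins, MRPS30 and MRPS18A, sit in the large subunit of the assembled particle, and MRPS36 is now known as a part of the 2-oxoglutarate dehydrogenase complex.

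Reads in mRNA regions numbered 7902427 to 14144455 per RNA-seq library, enough for at least 10 reads of every member in each of them. Ribo-seq was uneven, with CDS reads from 583798 to 1718521 in 4 libraries and 54421 and 54708 in the libraries Pro 1 and Sen 2. In these shallow libraries, 29 and 43 of the 78 members had under 3 reads, and 1 read was worth 17.2 and 17.7 CPM (reads relative to a TMM-scaled library size). RPF values of single genes in these libraries carry little weight, and the fitted fold changes rest mostly on the other 4. All 10 fibroblast markers listed were present, with a summed mRNA level of 26475 to 31051 CPM. The epithelial, endothelial and blood markers summed to 1.77 to 2.65 CPM in Pro and 3.02 to 3.19 CPM in Sen, and 9 of the 10 found stayed under 1 CPM in every library. Lamin B1 (LMNB1) mRNA fell by 2.84 on the log2 scale and CDKN1A mRNA rose by 1.60, the usual direction for senescent cells.

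How reads were split among overlapping or copied genes is not stated, which leaves some members uncertain. A coding gene on the opposite strand overlaps 20 members, and of those named below these are MRPL2, MRPL11, MRPL13, MRPL19, MRPL34, MRPL43, MRPL51, MRPS18A, MRPS18C, MRPS27 and MRPS34. Of the named members, MRPL57, MRPS21, MRPS31 and MRPS36 have at least 5 annotated pseudogene copies each.

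Together the members took a smaller part of the libraries in Sen. Their share of mRNA reads was 0.360%, 0.342% and 0.333% in Pro 1, 2 and 3. In Sen 1, 2 and 3 it was 0.294%, 0.309% and 0.276%. These shares did not overlap, and the means were 0.345% ± 0.014 and 0.293% ± 0.016 (SD, n = 3). With TMM scaling the summed mRNA levels did overlap, at 3465, 3311 and 3201 CPM in Pro, against 3075, 3203 and 2849 in Sen. The members' share of RPFs was 0.537%, 0.431% and 0.426% in Pro, against 0.348%, 0.371% and 0.312% in Sen. The RPF shares did not overlap, although the Wilson 95% intervals of the shallow libraries, 0.479% to 0.602% in Pro 1 and 0.323% to 0.425% in Sen 2, were wide. Nor did the TMM-scaled RPF sums, with a lowest Pro value of 4345 and a highest Sen value of 3890 CPM. In the same libraries the cytosolic ribosomal proteins went from 6.12% ± 0.31 to 3.81% ± 0.41 of mRNA reads and from 4.60% ± 0.35 to 3.43% ± 0.11 of RPFs. In bulk samples such as these, fewer cells of a kind and less RNA per cell cannot be told apart.

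**Figure D1:**
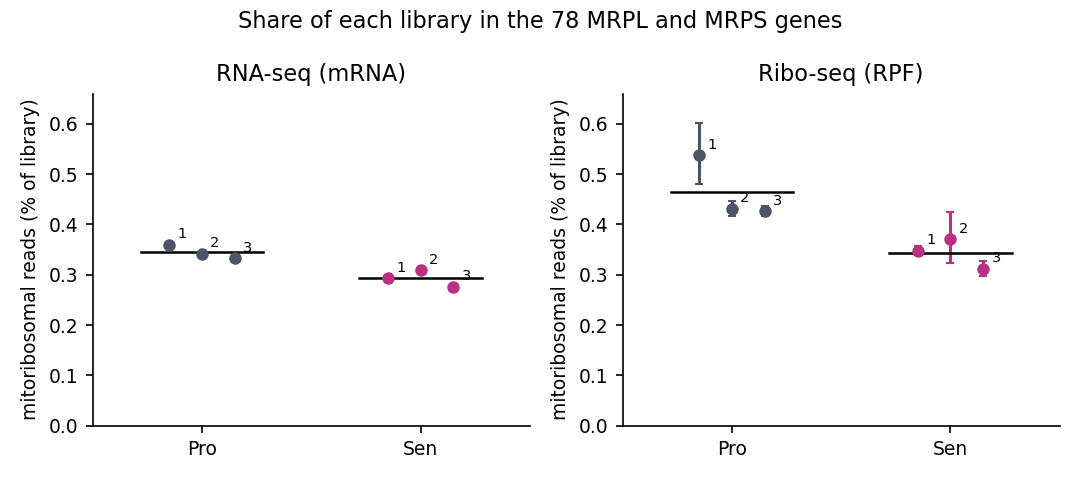
Share of each library's reads that fell in the 78 mitoribosomal protein genes (vertical axis, percent), for RNA-seq and Ribo-seq in Pro and Sen. Points are libraries labelled by replicate number, bars are Wilson 95% intervals for counting error only and lines are group means. The 3 Sen libraries lie below the 3 Pro libraries in both panels, with a Pro maximum of 0.537% in the shallow Ribo-seq library Pro 1.

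Levels per kilobase of coding sequence differed widely among proteins most of which are present once in each mitoribosome. RPF level per kilobase had a median of 87.0 CPM in Pro, from 31.9 to 600.5, and of 64.9 CPM in Sen, from 9.06 to 482. For the cytosolic ribosomal proteins the medians were 1131 and 905 CPM per kilobase. MRPL52, a protein of the central protuberance, MRPS21 and MRPL41 were among the 4 members with the highest RPF level per kilobase in both states. MRPL52 stood at 1129, 387 and 285 CPM per kilobase in Pro and at 385, 482 and 245 in Sen, so its first place in Pro came from the shallow library. MRPS21, a small subunit protein with 8 pseudogene copies in the annotation, stood at 726, 481 and 414 in Pro, against 579, 338 and 530 in Sen. MRPS26, MRPS30 and MRPS31 were at the other end, and MRPS31 had 58.1, 29.9 and 29.5 CPM per kilobase in Pro against 10.7, 0 and 16.4 in Sen. MRPL12, the stalk protein that is present in several copies per mitoribosome, ranked 15 of 78 in RPF level per kilobase in Pro, against 14 in Sen.

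The order of the members was largely kept between the states. RPF level per kilobase in Pro and Sen had a Spearman coefficient of 0.82 over the 78 genes, and CDS mRNA level per kilobase 0.94. Within a state, mRNA and RPF levels per kilobase had a coefficient of 0.75 in Pro and 0.74 in Sen. These are correlations across genes that share libraries and coding lengths, given as descriptions. The ratio of RPF to CDS mRNA was highest for MRPS21 in both states, at a mean log2 of 1.92 ± 0.31 in Pro and 1.59 ± 0.48 in Sen, and lowest in Sen for MRPL33, at -1.57 ± 1.11. The last place of MRPL33 came from the shallow library Sen 2, where it had 0 reads. In Sen 1 and 3 it stood at -0.96 and -0.89 and was not the lowest member in either. In CDS mRNA per kilobase, MRPL51, MRPL33 and MRPL17 were among the 6 highest in Pro, and MRPL1, MRPS30 and MRPS31 among the lowest in both states.

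**Figure D2:**
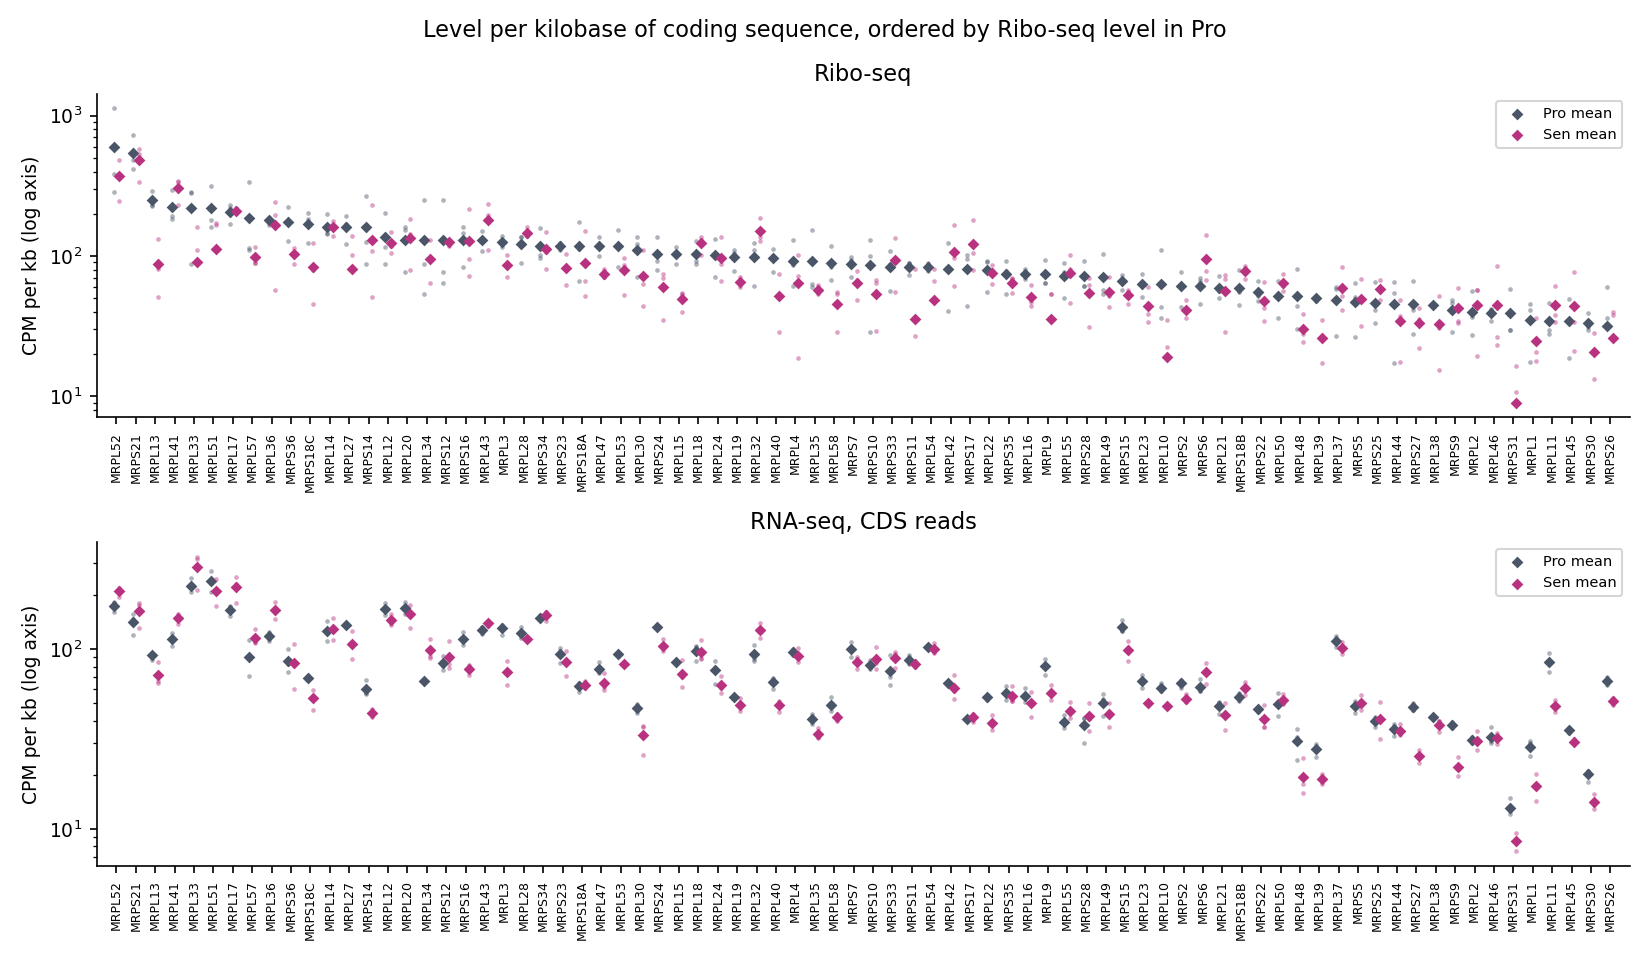
Level per kilobase of coding sequence (CPM per kb, log axis) of each of the 78 members, for Ribo-seq and for the CDS reads of RNA-seq, ordered by the Ribo-seq mean in Pro. Diamonds are means and small points are the 3 libraries of each state, with libraries at 0 not drawn. Ribo-seq means in Pro run from 600.5 for MRPL52 down to 31.9 for MRPS26.

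The promoters were searched for short sequences of 3 factors linked to genes of mitochondrial function, since such genes are often described as moving together. RefSeq promoter sequences (GRCh38.p14, 250 bases before to 50 after the start) were matched for 69 of the 78 members. The searched letters, on both strands, were GCGCANGCG for NRF1, CCGGAAG for the ETS family to which GABPA belongs and AANATGGCG for YY1. Each promoter was counted once per sequence, and overlapping matches were kept. The ETS sequence was in 29 member promoters (42.0%), against 19.6% of the promoters of genes tested in mRNA and 10.7% of all 27305 promoters. The YY1 sequence was in 18 (26.1%), against 7% and 3.37%. The NRF1 sequence was in 13 (18.8%), against 15.0% and 8.05%. Of 65 promoters of cytosolic ribosomal proteins, 33.8% held the ETS sequence, 12.3% the YY1 sequence and 12.3% the NRF1 sequence. The examples below belong to members described further on, with the matched letters in capitals, read 5′ to 3′ along the strand of the gene.
MRPL3, ETS, minus strand, chr3:131502987-131503013: gtaaaacgcaCCGGAAGtgggtccggc
MRPL33, ETS, plus strand, chr2:27771701-27771727: gggccgtgccCCGGAAGcagttgttgt
MRPS10, ETS, minus strand, chr6:42217867-42217893: cgctgtaaccCCGGAAGcaatcctgag
MRPS31, ETS, minus strand, chr13:40771206-40771232: aggcgccaggCCGGAAGcggaagagag
MRPL52, YY1, plus strand, chr14:22829813-22829841: acccagattcAAGATGGCGacttcctgct
MRPL57, NRF1, plus strand, chr13:21176574-21176602: cctcggctctGCGCAGGCGcagtcctctc
MRPS18C, NRF1, plus strand, chr4:83455912-83455940: gaaaggtgctGCGCATGCGtattgaaaaa

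At the mRNA level most members that passed the test were lower in Sen. With edgeR's quasi-likelihood test and a Benjamini-Hochberg adjusted p under 0.15 over all genes, mRNA of 40 members fell and that of 11 rose, 51 of 78 in all (65.4%). Over all 12790 genes tested, 73.6% passed, 37% as lower and 36.6% as higher. Among the 58 members that no coding gene overlaps on the opposite strand, 27 fell and 10 rose. The median log2 fold change of the members was -0.14, against -0.01 for all genes, and single members ran from -0.84 to 0.47. The 3 Pro and 3 Sen values did not overlap for 38 members (48.7%, 30 of them lower), against 67.8% of all genes. With library totals in place of TMM factors the median of all genes moved to -0.11 and that of the members to -0.25, and 49 members then fell and 9 rose.

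The 6 lowest mRNA changes came from both subunits. MRPL3, the homolog of the bacterial protein L3 that reaches towards the peptidyl transferase centre, was at 116, 111 and 102 CPM in Pro, against 62.1, 66.6 and 54.8 in Sen. Every Sen value was well below every Pro value, and MRPL3 mRNA fell by 0.84 ± 0.08 (SE, adjusted p = 8.41e-09). MRPS27, a pentatricopeptide repeat protein of the small subunit, went from 70.2, 67.0 and 65.9 CPM to 37, 41.5 and 34.5, a decrease as large (-0.84 ± 0.08, adjusted p = 1.1e-08). MRPL11, at the base of the L7/L12 stalk where translation factors bind, was at 45.4, 39.3 and 36.9 CPM in Pro, against 23.6, 24.4 and 22.2 in Sen (-0.78 ± 0.09, adjusted p = 2.35e-07). MRPS9, whose bacterial homolog touches the P-site tRNA, was at 31.2, 29.1 and 29.8 CPM against 17.0, 19.7 and 15.6 (-0.77 ± 0.10). The states did not overlap in any of these 4 genes. MRPL1 and MRPS31 completed the 6 lowest, at -0.73 ± 0.13 and -0.68 ± 0.13.

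The mRNAs that rose were those of small proteins. MRPL36, homolog of the very short bacterial protein L36, was at 32.0, 30.6 and 28.6 CPM in Pro, against 41.2, 46.7 and 37.7 in Sen (0.47 ± 0.09, adjusted p = 0.000132). MRPL41, a protein added in the mitochondrial lineage, was at 48.7, 51.0 and 55.8 CPM in Pro, against 72.3, 68.7 and 72.3 in Sen (0.45 ± 0.08, adjusted p = 2.5e-05). In both, all Sen values lay above all Pro values. MRPL34 and MRPL32 rose by 0.44, MRPL17, which lines the exit of the nascent chain tunnel, by 0.40, and MRPS6 by 0.38. All 11 members with higher mRNA had a coding length between 195 and 564 nt (median 366), whereas the 40 with lower mRNA spanned 336 to 1317 nt (median 618).

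Across the members, the mRNA change went with coding length. Of the 26 members with the shortest coding sequences, mRNA of 9 rose and of 8 fell (65.4% passed), with a median of 0.01. In the middle group of 26, 2 rose and 17 fell (73.1%, median -0.22), and among the 26 longest 0 rose and 15 fell (57.7%, median -0.18). Among all genes tested in mRNA, 73.6% passed, 37% as lower and 36.6% as higher. The Spearman coefficient between coding length and mRNA fold change was -0.43 over the 78 members and between -0.47 and -0.40 in the alternatives run. It was -0.14 over 12259 genes with a coding length and -0.04 over the 5551 genes in the length range of the members. The RPF change had a coefficient of -0.38 with length in the members and 0.04 in genes of that length range. In the members it was -0.19 with the replicate block, -0.23 with DESeq2, -0.25 without Pro 3 and down to -0.40 in the other alternatives. The change of RPF over mRNA had -0.04 in the members, from -0.09 to 0.07 in the alternatives. Coding length and GC content of the transcript were nearly unrelated among the members (-0.06).

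**Figure D3:**
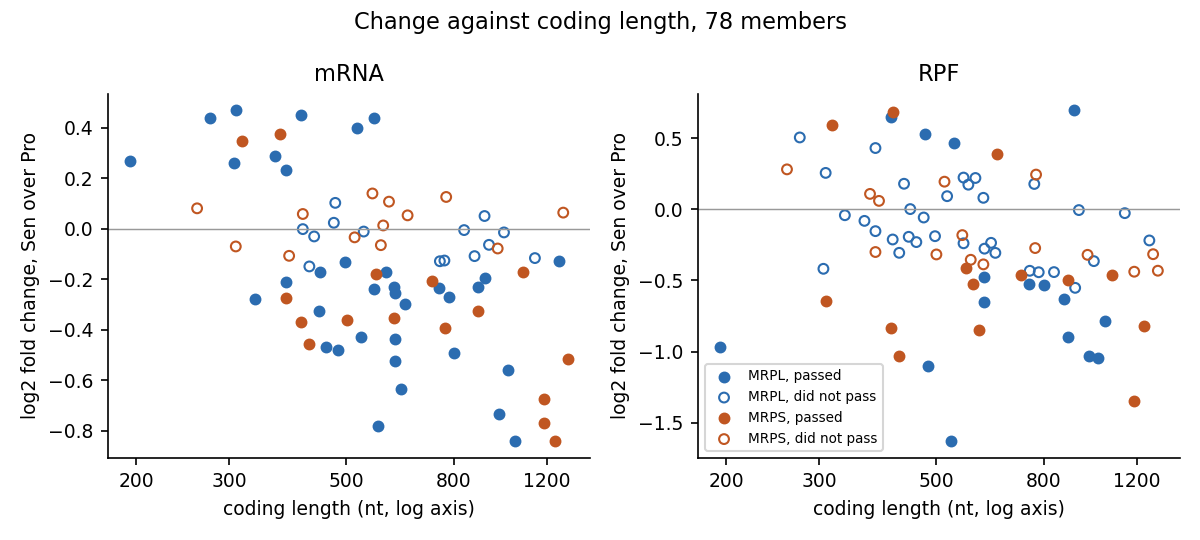
Log2 fold change (Sen over Pro, vertical axis) of mRNA and RPF against coding length (nt, log axis) for the 78 members. Filled points passed the test at an adjusted p under 0.15, blue for MRPL and orange for MRPS symbols. Every filled mRNA point above 0 lies at 564 nt or less, and the 26 longest members hold 15 filled mRNA points, all below 0.

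At the level of RPFs, too, more members fell than rose. RPFs of 23 members fell and those of 7 rose, 30 of 78 (38.5%), against 54.3% of the 7562 genes tested (26.6% lower, 27.7% higher). Among the 58 members without an opposite-strand overlap, 13 fell and 4 rose. The median log2 fold change was -0.29 for the members and 0.01 for all genes, and the states did not overlap for 19 members (24.4%, 17 lower), against 32.7% of all genes. DESeq2 called 2 members, MRPL13 and MRPS18C, where it called 15.3% of all genes, and these were the only members called in every alternative that could be run. Without Sen 1, without Pro 2 and with both shallow lysates left out, 16, 18 and 36 members passed, beside 33.4%, 41.8% and 53.7% of all genes in the same fits.

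MRPL13 had the largest RPF decrease. This homolog of bacterial L13, an early-binding protein of the large subunit, was at 155, 124 and 121 CPM in Pro, against 43.5, 70.6 and 27.3 in Sen, counted from 9, 84 and 204 reads and from 65, 4 and 14 reads. All Sen values were below all Pro values, and RPFs fell by 1.63 ± 0.22 (adjusted p = 9.98e-09), while its mRNA fell by 0.43 ± 0.09. The overlapping gene on the opposite strand is MTBP. MRPS31 was at 68.9, 35.4 and 35.0 CPM in Pro, against 12.7, 0 and 19.5 in Sen, again without overlap (-1.35 ± 0.35, adjusted p = 0.00124). MRPL39, a mitochondria-specific protein, was at 51.7, 48.7 and 51.6 CPM against 26.7, 35.3 and 17.5 (-1.04 ± 0.28). MRPL30, MRPL1 and MRPS18C fell by 1.10, 1.03 and 1.03, and their states overlapped only through the shallow libraries.

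The 7 members with higher RPFs were MRPL2, MRPS12, MRPL41, MRPS33, MRPL43, MRPL18 and MRPS34. MRPL2, homolog of the interface protein L2, had 25.1 and 33.8 CPM in Pro 2 and 3, against 52.8 and 52.6 in Sen 1 and 3, but 51.7 in Pro 1 and 17.7 in Sen 2 from 3 reads and 1 read (0.70 ± 0.27, adjusted p = 0.0314). MRPS12, which forms part of the decoding centre, had 26.6 and 32.0 CPM in Pro 2 and 3, against 54.2 and 48.7 in Sen 1 and 3, with 103 in Pro 1 from 6 reads and 53.0 in Sen 2 (0.68 ± 0.27, adjusted p = 0.0384). MRPL41 was at 121, 75.2 and 78.9 CPM in Pro, against 138, 141 and 95.5 in Sen, with its lowest Sen value inside the Pro range (0.65 ± 0.19, adjusted p = 0.0051). None of the 7 passed under DESeq2 or with the replicate number as a block. RPF fold change followed the GC content of the transcript in the members (Spearman 0.50) and in all genes (0.41). With that trend removed, a choice made after seeing the data, 32 of the 78 members were called, beside 46.7% of all genes in the same fit. Of these members 29 fell and 3 rose, MRPL18, MRPS33 and MRPL32.

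mRNA and RPF changes had the same sign in 61 of the 78 members. Both fell in 18 members, both rose in 2 (MRPL41 and MRPS33), and mRNA alone fell in 22 and rose in 8. RPFs alone fell in 4, MRPL19, MRPS10, MRPS18A and MRPS36, and rose in 5. The Spearman coefficient of the fold changes was 0.58 over the members and 0.79 over 7512 genes. MRPL33 was the 1 member called in opposite directions. Its mRNA call did not hold with library totals, without Sen 1, without Sen 2 or without both shallow lysates (adjusted p up to 0.237), and its RPF call did not hold with DESeq2 (adjusted p = 0.399).

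**Figure D4:**
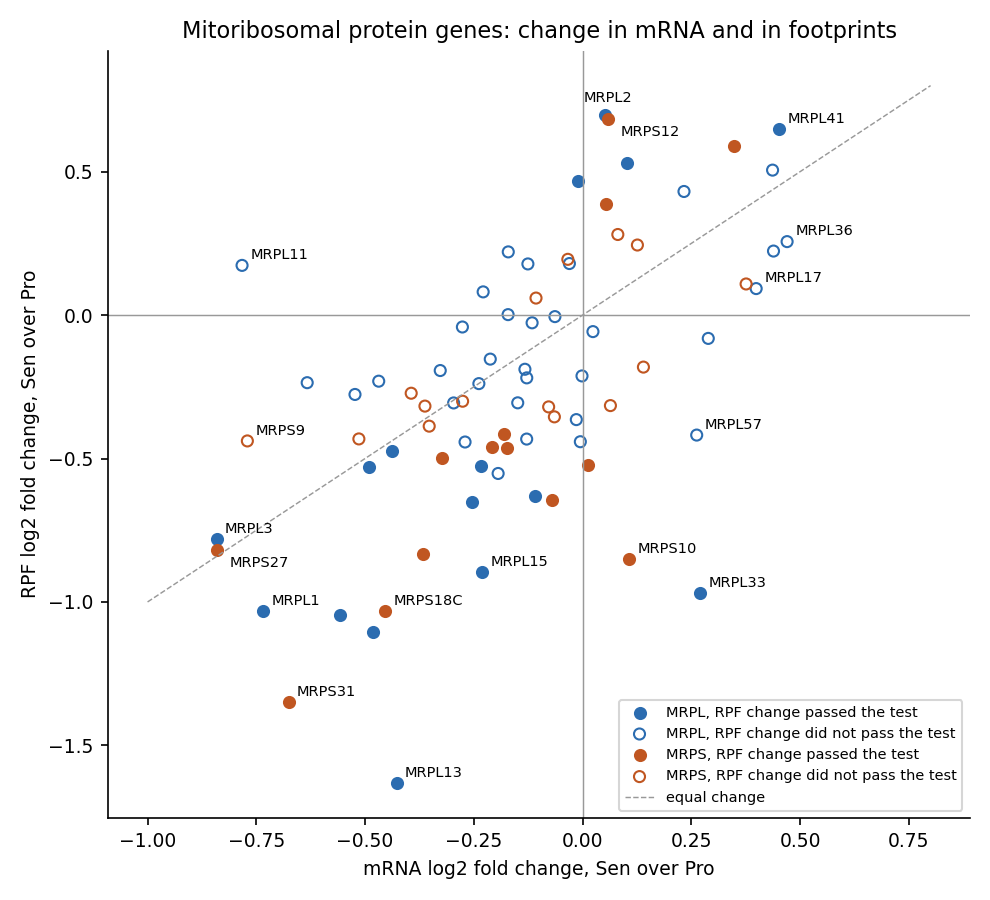
Log2 fold change (Sen over Pro) of mRNA (horizontal) against RPF (vertical) for the 78 members, blue for MRPL and orange for MRPS symbols. Filled points passed the RPF test and the dashed line marks equal change. MRPL13 lies lowest at an RPF change of -1.63, and MRPL33 lies right of 0 and far below the line at 0.27 and -0.97.

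Translational efficiency (TE), the ratio of RPF to mRNA within a lysate, was tested in the same 78 genes. TE fell in 5 members and rose in 0 (6.41%), against 9.41% of the 7512 genes tested (4.42% lower, 4.99% higher). DESeq2 called 0 members and 27 genes in all. The median TE change was -0.09 for the members and -0.01 for all genes, and TE did not overlap between the states for 14 members (17.9%), against 16.3% of all genes. TE change followed GC content, with a Spearman coefficient of 0.40 in the members and 0.50 in all genes, and with that trend removed 2 members and 1.46% of all genes were called.

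MRPL33, with 195 nt the shortest coding sequence of the members, had the largest TE decrease. Its mRNA was at 55.7, 49.8 and 52.4 CPM in Pro, against 69.7, 71.8 and 48.3 in Sen, higher in Sen 1 and 2 and lower in Sen 3 (0.27 ± 0.11, adjusted p = 0.0351). Its RPFs were at 17.2, 56.1 and 55.2 CPM in Pro, against 31.4, 0 and 21.4 in Sen, from 1, 38 and 93 reads and 47, 0 and 11 reads (-0.97 ± 0.28, adjusted p = 0.00419). Log2 TE was 0.19 and 0.08 in Pro 2 and 3, against -1.13 and -1.11 in Sen 1 and 3, and Pro 1, at -1.11 from a single read, was the value that overlapped. The TE change was -1.28 ± 0.29 (adjusted p = 0.00445), -1.27 without both shallow lysates and -1.09 ± 0.32 (adjusted p = 0.0598) with the GC trend removed. The gene overlaps BABAM2, annotated on the same strand.

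The other members with lower TE were MRPL13, MRPS10, MRPL57 and MRPL15. For MRPL13, log2 TE was 1.96, 1.57 and 1.57 in Pro, against 0.57, 1.19 and 0.01 in Sen, without overlap (-1.15 ± 0.25, adjusted p = 0.00285). MRPL15, also of bacterial descent, was at 0.95, 0.50 and 0.80 in Pro, against 0.07, -0.29 and 0.24 in Sen, again without overlap (-0.61 ± 0.24, adjusted p = 0.14). For MRPS10, whose bacterial homolog lies in the head of the small subunit, the mRNA change did not pass the test (0.11 ± 0.08) and RPFs fell by 0.85 ± 0.25. Its log2 TE was -1.18, 0.02 and 0.34 in Pro, against -0.65, -1.45 and -0.55 in Sen, with the overlap due to 1 read in Pro 1 (-0.85 ± 0.25, adjusted p = 0.0486). MRPL57 changed by -0.83 ± 0.32 (adjusted p = 0.131). With the GC trend removed, MRPL13 and MRPL33 were still called (adjusted p = 0.0831 and 0.0598) and MRPS10, MRPL57 and MRPL15 were not (0.441, 0.401 and 0.571).

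The highest TE change was in the other direction from its mRNA and did not pass the test. MRPL11, whose mRNA fell as given above, had RPFs of 17.2, 26.6 and 16 CPM in Pro, against 22.1, 35.3 and 19.5 in Sen. Its RPF counts were 1, 18 and 27 reads in Pro, against 33, 2 and 10 reads in Sen. Its log2 TE was -0.82, -0.53 and -1.18 in Pro, against -0.08, 0.85 and -0.12 in Sen, higher in every Sen lysate, with a fitted change of 0.88 ± 0.37 (adjusted p = 0.175). Without the lysate as a block the adjusted p was 0.0727, and without both shallow lysates it was 0.178. MRPS12 and MRPL2 followed at 0.60 ± 0.29 and 0.56 ± 0.29.

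**Figure D5:**
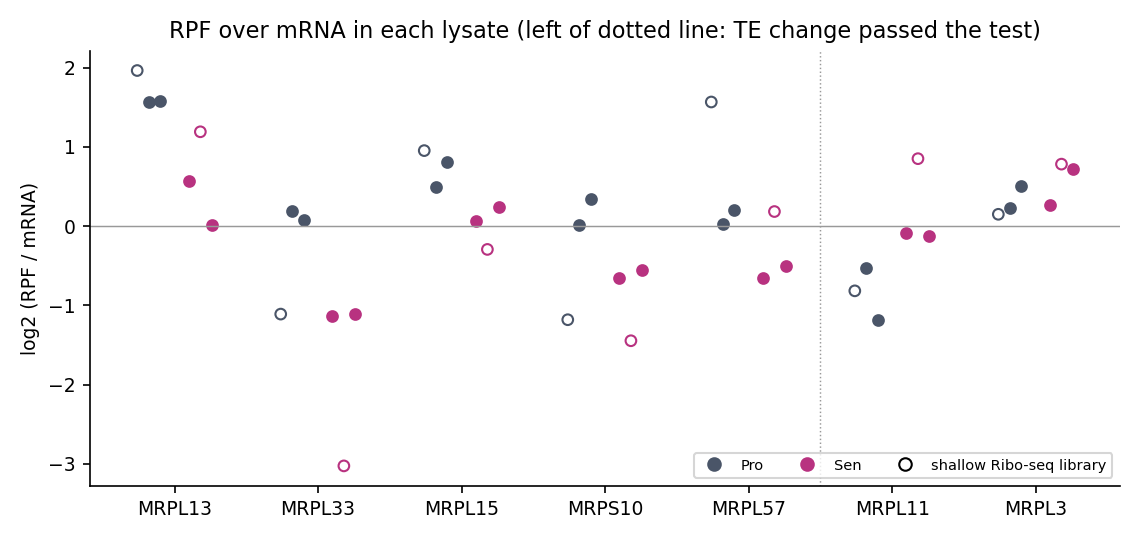
Log2 ratio of RPF to mRNA (vertical axis) in each of the 6 lysates for the 5 members whose TE change passed the test (left of the dotted line) and for MRPL11 and MRPL3. Open points are the lysates of the shallow Ribo-seq libraries Pro 1 and Sen 2. For MRPL33 and MRPS10, the open Pro point, at -1.11 and -1.18, lies among or below the filled Sen points, whereas the filled points of Pro lie above those of Sen for each of the first 5 genes.

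In both subunits more members fell than rose. Of 49 MRPL symbols, mRNA of 26 fell and of 9 rose (71.4%, median -0.15), and of 29 MRPS symbols 14 fell and 2 rose (55.2%, median -0.11). RPFs fell in 12 and rose in 4 MRPL genes (32.7%, median -0.22), and fell in 11 and rose in 3 MRPS genes (48.3%, median -0.35). Over all genes tested, 73.6% passed in mRNA and 54.3% in RPFs. The log2 ratio of summed large to summed small subunit mRNA was 0.892 ± 0.021 in Pro and 0.935 ± 0.019 in Sen. Its ranges, 0.873 to 0.914 and 0.917 to 0.955, did not overlap, and the means differed by 0.04. The difference of the median fold changes (MRPL minus MRPS) was -0.04, opposite in sign to the change of the summed ratio. The sign of the median difference turned without Sen 2 (0.039) and without both shallow lysates (0.0031). For RPFs the ratio was 0.936 ± 0.094 in Pro and 0.899 ± 0.102 in Sen, with overlapping ranges. Placing the proteins by their site in the particle, with MRPS30 and MRPS18A in the large subunit, left 27 falling and 9 rising of 51 in the large and 13 and 2 of 26 in the small subunit in mRNA. By this placement the log2 ratio of summed mRNA was 1.017 ± 0.026 in Pro and 1.061 ± 0.024 in Sen. Its ranges, 0.993 to 1.045 and 1.044 to 1.087, overlapped.

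Within the large subunit, mRNA of 4 of the 5 L7/L12 stalk proteins fell (over all genes 73.6% passed, 37% as lower), and 0 of the 5 passed in RPFs (54.3% of all genes). MRPL12 itself was at 88.7, 84.7 and 84.5 CPM of mRNA in Pro, against 82.7, 69.2 and 77.7 in Sen (-0.17 ± 0.08, adjusted p = 0.058), and its RPF change was 0.22 ± 0.23. Of 9 central protuberance proteins, mRNA of 4 fell and of 2 rose (66.7%), and RPFs of 2 fell and of 1 rose (33.3%). Those that fell were MRPL40, by 0.47, and MRPL58, a peptidyl-tRNA hydrolase that also rescues stalled mitoribosomes, by 0.65, and RPFs of MRPL18 rose by 0.47 ± 0.23 (adjusted p = 0.092). At the polypeptide exit, mRNA of 5 of 6 proteins fell and that of MRPL17 rose, while RPFs of 1 of the 6 fell (16.7%). Among those with lower mRNA was MRPL45, which anchors the mitoribosome to the inner membrane. The MRPL45 call did not hold with DESeq2 or without Pro 1, Pro 2 or Sen 3 (adjusted p up to 0.316). Of 46 proteins with a bacterial homolog, mRNA of 25 fell and of 7 rose (69.6%), and of 31 mitochondria-specific ones 15 and 4 (61.3%).

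The paralogs MRPS18A, MRPS18B and MRPS18C, which occupy different places in the particle, were set side by side. MRPS18C mRNA was at 28.3, 26.3 and 29.9 CPM in Pro, against 20.4, 22.6 and 18.3 in Sen, all Sen values below all Pro values (-0.45 ± 0.10). Its RPFs were at 86.1, 78.2 and 52.8 CPM against 34.1, 53.0 and 19.5 (-1.03 ± 0.27, adjusted p = 0.00151). The states touch only through Sen 2, where a value of 2.5 reads was rounded up to 3. MRPS18A had an mRNA change of 0.01 ± 0.10, which did not pass, and lower RPFs (-0.52 ± 0.29, adjusted p = 0.136). For MRPS18B neither the mRNA change of 0.13 ± 0.09 nor the RPF change of 0.24 ± 0.23 passed. The differences among the paralogs were not tested. MRPS30 mRNA fell by 0.51 ± 0.11, and MRPS36, which is not a mitoribosome subunit, had an mRNA change of -0.07 ± 0.13 and lower RPFs (-0.65 ± 0.27, adjusted p = 0.0495).

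Other genes of mitochondrial translation were counted from lists set out by function. For comparison, 73.6% of all genes tested passed in mRNA, 54.3% in RPFs and 9.41% in TE. Among 5 tested subunits with other symbols, mRNA of the pentatricopeptide protein PTCD3 fell by 0.65 and that of DAP3, a GTP-binding protein of the small subunit, rose by 0.43, and 3 rose in all. Of 24 assembly factors, 13 fell and 4 rose in mRNA (70.8% passed), and of 18 tested 3 fell and 3 rose in RPFs (33.3%). Of 14 translation factors, 9 fell and 2 rose in mRNA (78.6%). Of the 8 tested in RPFs and TE, 2 fell and 1 rose in RPFs (37.5%), and 1 fell and 1 rose in TE (25%). For the elongation factor TUFM the RPFs rose by 0.74 ± 0.17 and TE by 0.64 ± 0.17 (adjusted p = 0.0242), with an mRNA change of 0.11 that did not pass. RPFs of GUF1 fell by 2.39 ± 0.45 and its TE by 1.47 ± 0.50 (adjusted p = 0.0856), and RPFs of the initiation factor MTIF2 fell by 0.95 ± 0.40. Of 17 mitochondrial aminoacyl-tRNA synthetases, 11 fell and 1 rose in mRNA (70.6%), and of 11 tested 3 fell and 2 rose in RPFs (45.5%). Of 20 genes that copy, process or stabilise mitochondrial RNA, 12 fell and 2 rose in mRNA (70%), and of 17 tested 6 fell and 2 rose in RPFs (47.1%). Among them TFAM, which packages mitochondrial DNA, was down by 0.84 in mRNA and 1.42 in RPFs. Among the factors whose motifs were searched, NRF1 mRNA fell by 0.52 and YY1 mRNA rose by 0.22, while GABPA mRNA did not pass (-0.10, adjusted p = 0.344) and its RPFs fell by 0.66. Of the partner subunits of GABPA, mRNA of GABPB1 fell by 0.44 and that of GABPB2 by 0.20 (adjusted p = 0.133).

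Members with and without the promoter sequences printed above were set side by side, without a test. Of the 29 with the ETS sequence, mRNA fell in 16 and rose in 3, and RPFs fell in 13 and rose in 4. Of the 40 without it, mRNA fell in 18 and rose in 8, and RPFs fell in 7 and rose in 2. Among all genes tested, 73.6% passed in mRNA (37% as lower) and 54.3% in RPFs (26.6% as lower). The median mRNA changes were -0.17 and -0.11, and the median RPF changes -0.39 and -0.29. For YY1 the median mRNA changes were -0.12 with and -0.13 without the sequence, and for NRF1 they were -0.13 in both sets.

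Cytosolic ribosomal proteins, the other ribosome of the cell, were tested in the same fits. Their mRNA fell in 80 of 82 and rose in 0 (median -0.55), RPFs fell in 43 and rose in 5 (median -0.33), and TE rose in 26 and fell in 1 (median 0.25). The members had medians of -0.14, -0.29 and -0.09 in the same tests. No test of the difference between these sets was made.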

How the data were processed

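The deposited values are the authors' reads per gene symbol and region for each library, here taken to be in the unit of expected counts because some are fractions of a read. Per the labels the submitters used cutadapt 1.18, Bowtie 1.0.1, SAMtools 1.8 and DESeq2 1.22.2. Genome build, strand rule and handling of multiply placed reads are not given in the sources used here, and 36 members have pseudogene symbols and 20 overlap a coding gene on the opposite strand. RNA-seq reads of both UTRs and the CDS were summed for mRNA, and the CDS reads in Ribo-seq were taken as RPF, with sums rounded. The planned tests had assumed plain counts.

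All genes with a CDS read were tested with edgeR 4.0.16 (quasi-likelihood test, filterByExpr, TMM, two-sided, Benjamini-Hochberg adjusted p under 0.15). TE was the interaction of library type and state, with lysate as a block because the protocol took both libraries from 1 lysate, and TE per lysate used 0.5 added to each count. Over genes, residuals of the 2 libraries of a lysate correlated at -0.05 to 0.06. Tests were checked on simulated counts. Coding lengths and GC content came from the canonical transcripts of a GRCh37 annotation. Intervals cover counting error only. Named members had the 6 highest or lowest fold changes in a layer, a TE call or 1 of the 3 highest or lowest TE changes or levels per length, or were named for what they are (MRPL12, MRPS12, MRPS30, MRPS36 and the MRPS18 paralogs); others are named where a count is small or a site is described, after their values were seen. Members, lists and tests were chosen with earlier results of these data known. Replicates were independent cultures by the protocol, and no pair of libraries agreed within sampling noise.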

Additional observations from a re-analysis of the deposited data

How the results depend on the processing

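No member was called in the opposite direction by any alternative, and 37 of the 51 mRNA calls, 2 of the 30 RPF calls and 0 of the 5 TE calls held in all alternatives with values. Members called in RPF numbered 2 with DESeq2, and 16 to 37 without 1 library at a time (16 without Sen 1, 18 without Pro 2), where 33.4% to 56.5% of all genes were called. In TE, 0 were called by the DESeq2 test, 3 when genes with at least 1 read were kept, 3 at an adjusted p under 0.05, 2 with the GC trend removed, 3 with that trend removed and no lysate block, 8 without both lysates of the shallow Ribo-seq libraries (13.2% of all genes), 10 with no replicate block (3 of them higher; 18.2% of all genes) and 2 to 8 without 1 lysate at a time (8 without Pro 1, 3 without Pro 2, 2 each without Pro 3, Sen 1 or Sen 3), where 1.57% to 14.1% of all genes were called. In mRNA, 46 to 53 were called without 1 library at a time. Whether the replicate number pairs the states was not settled. Same-numbered deviations correlated at 0.11, -0.21 and 0.25 in mRNA. In RPF they correlated at 0.03, 0.03 and 0.01, and there each sample correlated best with its own number. The 2 libraries of 1 lysate also correlated at only -0.05 to 0.06, so values this low cannot exclude pairing. With the replicate block 50 members were called in mRNA and 13 in RPF, all 13 lower, beside 73.7% and 31.7% of all genes.

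The MRPL minus MRPS median was -0.04 in mRNA, 0.0031 without both shallow lysates, -0.082 with CDS reads alone, -0.0092 by placement in the structure and -0.049 to 0.039 without 1 library at a time. In RPF it was 0.14, -0.073 with the replicate block, 0.020 with the GC trend removed and 0.014 to 0.161 without 1 library, and in TE 0.06, -0.06 to 0.08 without 1 lysate, 0.096 without both shallow lysates and 0.161 with no replicate block. At least 10 counts in every library left 1 member in RPF and TE, so no count was made there. Over the members named by the rule, not all 78, 88 values lost and 31 gained a call and 1335 kept theirs. The causes were not tested. Precision in RPF and TE is limited by depth: 29 and 43 of the 78 members had under 3 reads in the shallow libraries.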

Other observations

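In the 4 deeper Ribo-seq libraries, few reads of the members lay outside the CDS. Of their footprints in 5′ UTR, CDS and 3′ UTR, the 5′ UTR held 3.14%, 2.73% and 2.57% in the Pro libraries, against 1.998%, 1.48% and 0.642% in Sen 1, 2 and 3, so the states did not overlap. These are 10, 83.5 and 194 reads in Pro, against 120, 3.5 and 12 in Sen. The 3′ UTR held 4.66%, 0.524% and 0.496% in Pro, against 1.37%, 12.5% and 1.85% in Sen, with the highest value of each state in its shallow library. Over all genes the 5′ UTR held 10.2%, 3.70% and 2.78% of such reads in Pro, against 4.89%, 44.7% and 13.8% in Sen, with the highest value in a shallow library. MRPL51 and MRPS15 carried 16.8% and 11.1% of the members' 5′ UTR footprints over the 6 libraries. The MRPL51 gene overlaps NCAPD2 on the opposite strand. No test was made on these reads, and the part of depth in them was not tested.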
